A study of Mus musculus with 24 samples.

Results

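The adrenergic core regulatory circuit is the set of transcription factors that holds sympathetic neuroblasts, and the neuroblastomas that arise from them, in a noradrenergic identity. Its factors bind their own and each other's enhancers, so the circuit sustains itself once switched on, and they also bind enhancers of genes for catecholamine synthesis and neuronal form. Genes of this circuit were followed here, 8 of the 21833 protein-coding genes in the table. They were chosen by name: Phox2a, Hand2, Gata2, Gata3, Isl1, Tbx2, Insm1 and Sox11. Each had at least 1 FPKM, a read density scaled by gene length and library size, in at least 3 libraries. All 8 were thus among the 10171 genes tested. Isl1 (at most 0.749 FPKM) and Sox11 (at most 0.0120 FPKM) stayed below 1 FPKM in every gland and passed this filter through tumors alone. Their higher values in tumors than in glands were thus part of how they came to be tested.

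RNA-seq was performed on adrenal glands and neuroblastomas of mice in 4 groups, to ask what IGF2BP1, an RNA-binding protein also called IMP1, and the transcription factor MYCN change in the sympatho-adrenal lineage. AG came from adrenal glands without Cre (genotype CRE -, n = 3), and AGM from adrenal glands without tumors (MYCN +/-, CRE +, n = 5). TI were neuroblastomas (IGF2BP1 +/-, CRE + in 1 and IGF2BP1 +/+, CRE + in 7 of 8 samples), and TIM were neuroblastomas with both transgenes (IMP1/MYCN, CRE +, n = 8). The transgenes lay at the Rosa26 locus behind a stop cassette, and a Cre recombinase under the Dbh promoter removed the cassette in noradrenergic cells. Both transgenes thus depended on a promoter of the lineage that the circuit defines, all mice had been crossed to the same C57Bl6/N background, and the labels gave no age. Per the study's text, mice with MYCN alone were the oldest when culled and those with both transgenes mostly the youngest, so age cannot be told apart from group. TIM mice carried 1 IGF2BP1 and 1 MYCN allele at this locus. TIM and most TI tumors thus differ in IGF2BP1 dose as well as in MYCN. The study places nearly all tumors with IGF2BP1 alone in the lower abdomen. Mice with both transgenes bore tumors also in adrenal glands and along the spine. Tumor site therefore cannot be told apart from tumor model, and gland to tumor below names a difference between tissues. No source stated whether samples of a group came from separate litters. P-values measure the spread between these samples that was left after the batch correction of the study, and the fit held no term for batch.

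Library letters (TI A to TI H, for example) follow the order of the columns, which carried no sample number, so zygosity, tumor site and sequencing run of a single library were not known. Per the labels, all 3 AG samples were sequenced in run 1, all 5 AGM samples in run 2, 6 TI samples in run 1, and no TIM sample in run 1. The other TI samples were in run 2 (1) and run 3 (1), and the TIM samples in run 2 (3) and run 3 (5). Whether AG differs from AGM or from TIM by group or by run cannot be told apart, and no comparison was made inside a single run. Run also differed between most TI and TIM samples, and its part in TIM vs TI was not tested. The reads recovered from the values, after the batch correction of the study, summed to 12468968 to 21353172 per library in AG and TI. In AGM and TIM they summed to 58530450 to 1170004708, carried by 126 genes above 1000 FPKM in at least 1 library, none of them a member. Outside these genes every library held 12334076 to 23683176 reads, which was taken as its depth. The cell type markers moved with the groups. The summed FPKM of 9 adrenal cortex markers lay between 646 and 667 in AG and between 4425 and 5522 in AGM, and reached no more than 10.1 in TI and 9.28 in TIM. For 6 chromaffin cell markers the sum lay between 127 and 185 in AG, between 1448 and 2496 in AGM, between 73.9 and 1626 in TI and between 109 and 4645 in TIM. Some tumors stood apart in markers of other cells: TI D was highest in 6 fibroblast markers (78.0) and in 6 endothelial markers (24.6), and TIM E (44.3) and TIM A (23.0) were highest in 6 Schwann and sustentacular cell markers. In bulk tissue, fewer cells of a type and less RNA per cell cannot be told apart.

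The members belong to separate families of DNA-binding proteins. PHOX2A is a paired-like homeodomain protein and ISL1 a LIM homeodomain protein. HAND2 is a basic helix-loop-helix protein, a class that binds CANNTG (the E-box) with a partner. GATA2 and GATA3 are zinc finger proteins that bind GATA sequences, INSM1 is a zinc finger repressor of endocrine and neuronal progenitors, TBX2 is a T-box protein and SOX11 an HMG-box protein of the SoxC group. On GRCm39, the build of the alignment, Phox2a (ENSMUSG00000007946) lies at chr7:101467514-101471933, Hand2 (ENSMUSG00000038193) at chr8:57774011-57777677, Gata2 (ENSMUSG00000015053) at chr6:88170559-88184018 and Tbx2 (ENSMUSG00000000093) at chr11:85723377-85734115, all on the plus strand. Insm1 (ENSMUSG00000068154) lies on the plus strand at chr2:146063841-146066940. Gata3 (ENSMUSG00000015619) at chr2:9861889-9894845, Isl1 (ENSMUSG00000042258) at chr13:116434817-116446235 and Sox11 (ENSMUSG00000063632) at chr12:27384263-27392573 lie on the minus strand. The libraries kept strand, but the strand setting of the counting was not given in the sources used here. Exons on the opposite strand overlapped those of Gata2 (921 bases shared with Spehd), Tbx2 (668 with Gm72096), Hand2 (468 with Hand2os1), Gata3 (303 with Gm13256) and Phox2a (112 with Inppl1), so reads of these pairs may not have been separated.

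RefSeq promoters on GRCm38.p6 matched 6 of the 8 members, with 7 windows in all as Gata2 had 2 starts, and none was listed for Tbx2 and Insm1. The 250 bases before each start were searched on both strands for CANNTG, its palindrome CACGTG (bound by MYC proteins), GATAA, TAAT (the core of homeodomain sites) and TAATTA, which itself holds TAAT. GATAA and TAAT can overlap by 3 bases. The windows of 4 members that passed in TI vs AG and held at least 1 of these motifs are shown, because they place the binding letters of the circuit's own families beside the values that follow. Capitals mark matches on either strand to the E-box CANNTG, to the GATA motif GATAA and to the homeodomain core TAAT.
Hand2, chr8:57320733-57320982, plus strand: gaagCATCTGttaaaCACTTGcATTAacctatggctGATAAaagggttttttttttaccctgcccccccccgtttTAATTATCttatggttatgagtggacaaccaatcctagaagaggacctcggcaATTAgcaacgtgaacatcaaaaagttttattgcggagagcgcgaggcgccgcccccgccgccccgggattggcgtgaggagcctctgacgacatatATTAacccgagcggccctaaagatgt
Isl1, chr13:116309689-116309938, minus strand: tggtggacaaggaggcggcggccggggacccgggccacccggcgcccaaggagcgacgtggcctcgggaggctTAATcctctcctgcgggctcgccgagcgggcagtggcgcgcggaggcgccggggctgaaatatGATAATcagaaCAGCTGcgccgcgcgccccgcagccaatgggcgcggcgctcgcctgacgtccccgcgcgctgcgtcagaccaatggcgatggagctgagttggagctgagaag
Sox11, chr12:27342719-27342968, minus strand: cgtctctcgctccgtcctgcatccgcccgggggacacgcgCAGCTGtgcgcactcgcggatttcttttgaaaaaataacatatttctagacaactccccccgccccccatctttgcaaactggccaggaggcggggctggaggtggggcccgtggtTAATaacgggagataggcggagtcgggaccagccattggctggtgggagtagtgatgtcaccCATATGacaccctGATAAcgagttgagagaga
Phox2a, chr7:101818063-101818312, plus strand: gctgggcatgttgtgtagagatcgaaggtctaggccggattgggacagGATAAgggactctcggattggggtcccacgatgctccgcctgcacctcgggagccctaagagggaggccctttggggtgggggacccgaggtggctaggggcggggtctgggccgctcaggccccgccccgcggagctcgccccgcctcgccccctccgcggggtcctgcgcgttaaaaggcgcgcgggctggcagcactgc

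The Hand2 window held 2 CANNTG, 2 GATAA and 5 TAAT matches, 2 of which, 1 on each strand, lay in a TAATTA. The Sox11 window held 2 CANNTG, 1 GATAA and 1 TAAT, the Isl1 window 1, 1 and 2, and the Phox2a window 1 GATAA alone. Neither Gata2 window and not the Gata3 window held any of these letters. Among 32851 windows of the same length, 66.2% held CANNTG, 22.6% GATAA, 54.9% TAAT, 4.84% TAATTA and 6.02% CACGTG, which occurred in no member's window. GC content was 49.2% in the Hand2 window, 58% in that of Sox11 and 67.2% to 74% in the others, beside a median of 52.4% over all windows. A match of letters is a description and does not show binding.

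Of the 8 members, 7 rose in TI vs AG (all but Gata3) and 5 rose in TIM vs AG (Hand2, Gata2, Isl1, Insm1 and Sox11), by limma on log2(FPKM + 1) with an FDR below 0.05 over all tested genes. Over all tested genes, 24.6% rose and 27.7% fell in TI vs AG, and 22.5% rose and 28.5% fell in TIM vs AG. No member fell in either, and both comparisons share the 3 AG libraries. Isl1 and Sox11, which passed the filter through tumors alone, are counted here and in TIM vs AGM below. In both, 7 of 9 cortex and 4 of 4 adipocyte markers fell, and their part in the rise of the members was not tested. The median log2 fold change of the members was 2.57 in TI vs AG and 1.69 in TIM vs AG, and that of all tested genes was -0.0021 and -0.0049. In AGM vs AG, 2 members rose (Hand2 and Insm1) and Tbx2 fell, where 14.6% of tested genes rose and 14.0% fell. Between the tumor models, 4 members were lower in TIM than in TI (Phox2a, Isl1, Tbx2 and Sox11) and none higher, beside 12.9% of tested genes that were lower and 10.0% that were higher. Against AGM, 5 members were higher in TIM (Hand2, Isl1, Tbx2, Insm1 and Sox11), where 31.9% of tested genes were higher and 33.4% lower. The step from gland to tumor was smaller in TIM vs AGM than in TI vs AG for 4 members (Phox2a, Hand2, Isl1 and Insm1) and larger for none by the interaction contrast, which called 6.15% of tested genes in this direction and 3.85% in the other. Log2 fold changes here are of FPKM + 1 and understate the change of genes with low values.

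**Figure D1:**
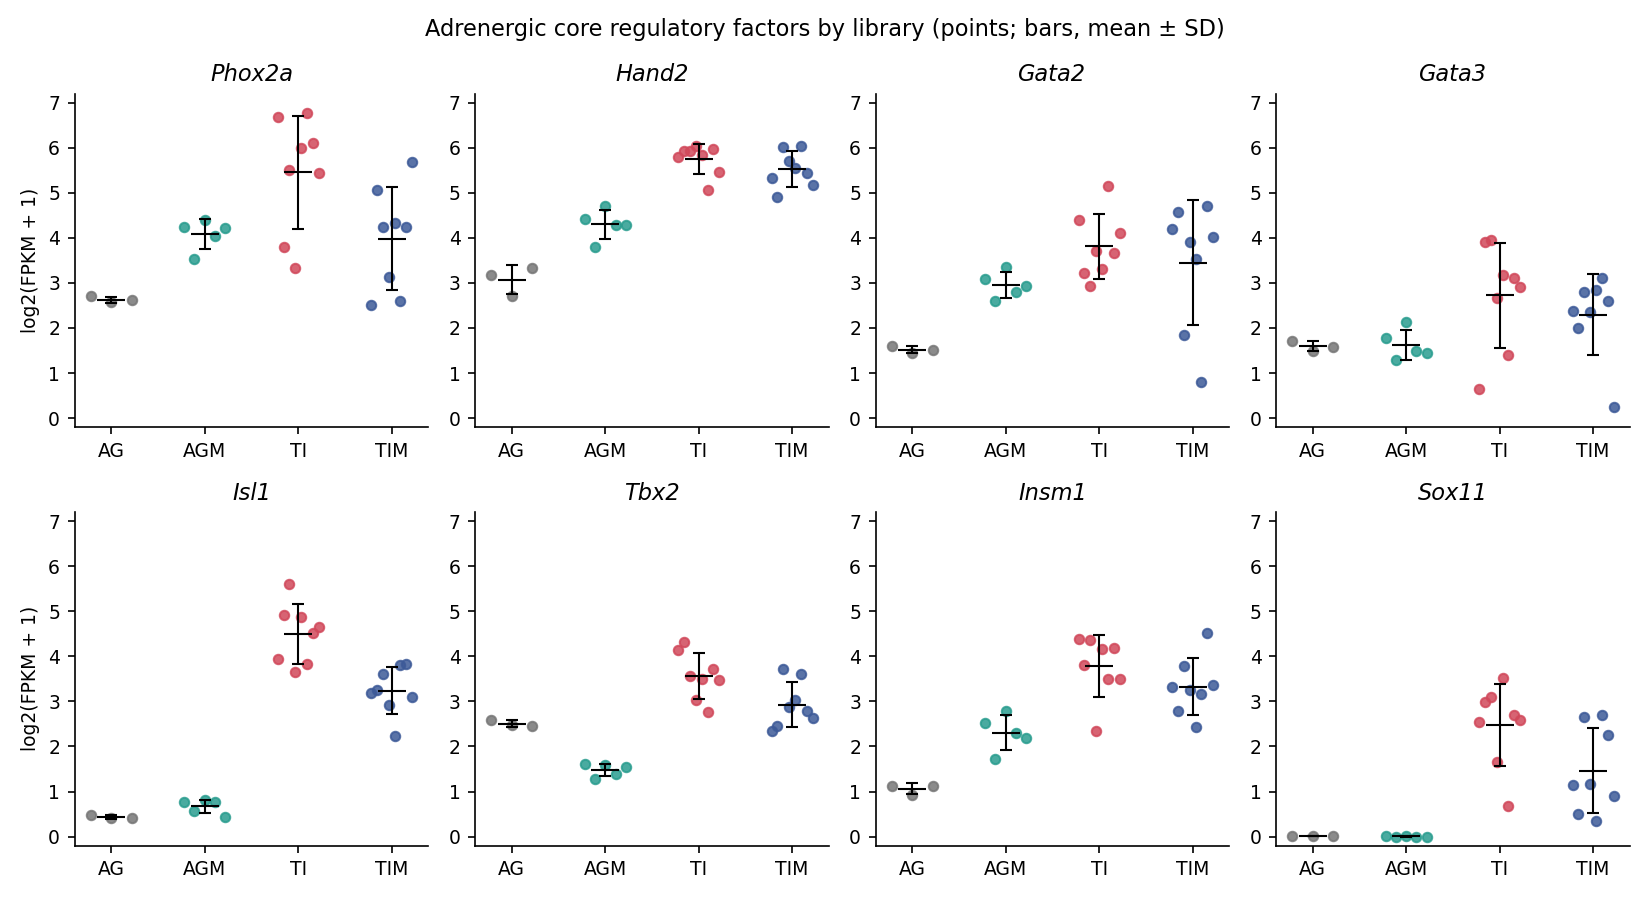
Level of each member as log2(FPKM + 1) in every library (points) of AG (n = 3), AGM (n = 5), TI (n = 8) and TIM (n = 8), with the mean and SD of each group as bars. Hand2, Isl1, Insm1 and Sox11 were higher in all 16 tumors than in all 3 AG libraries, whereas Gata3 spread from 0.567 to 14.5 FPKM within TI. Isl1 and Sox11 passed the expression filter through tumors alone. How many of all tested genes separated from AG in this way was not counted.

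**Figure D2:**
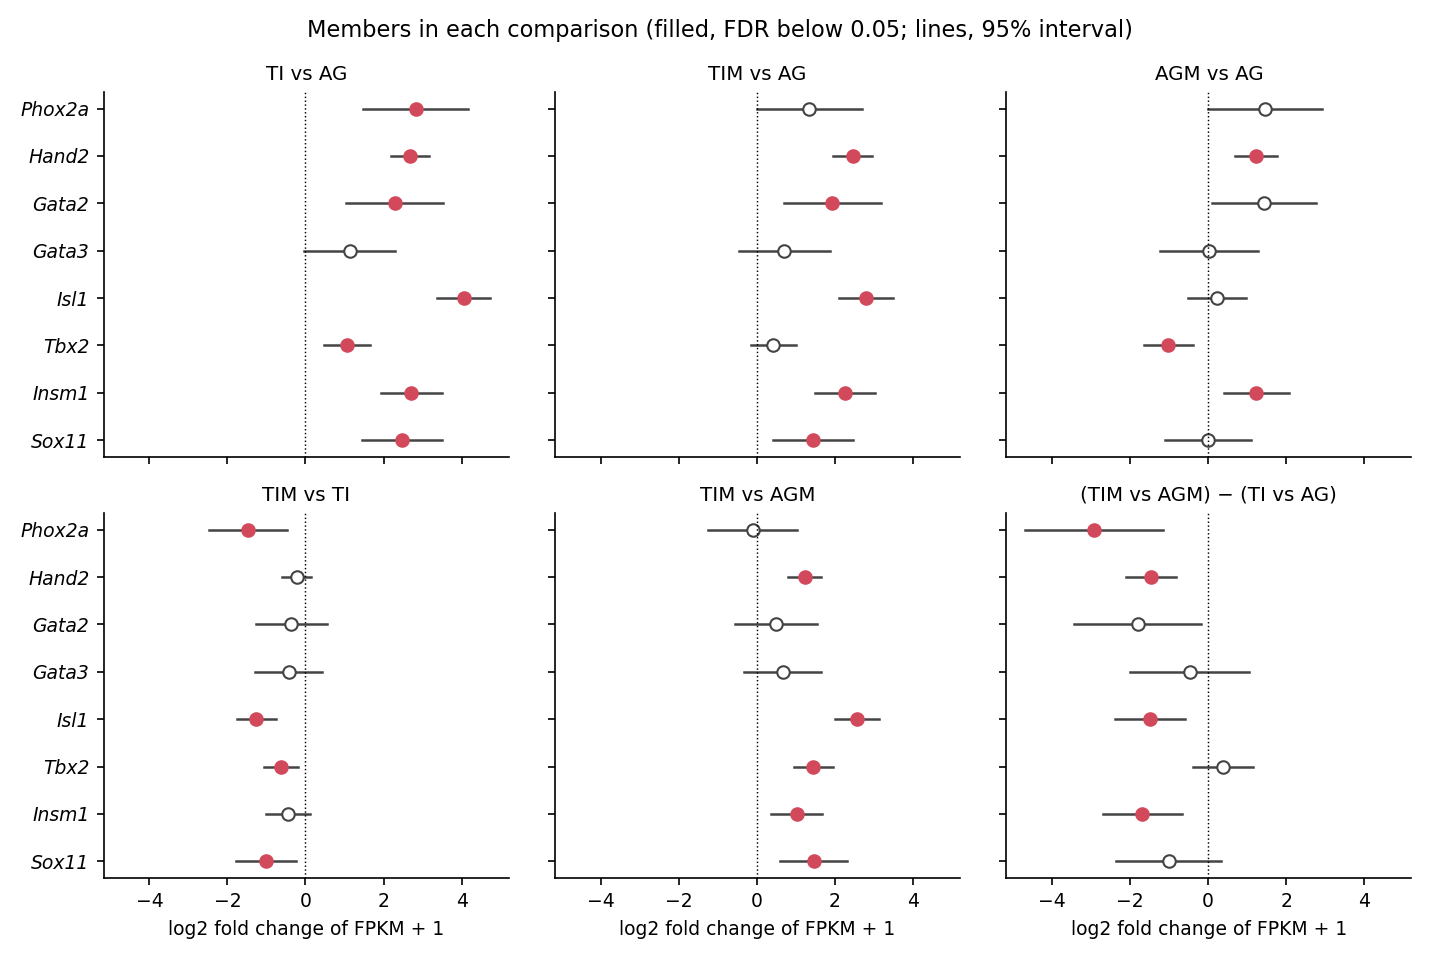
Log2 fold change of FPKM + 1 of each member in the 5 comparisons and in the difference between the gland-to-tumor changes, with 95% intervals as lines. Filled points passed an FDR below 0.05, as 7 members did in TI vs AG and 4 did in TIM vs TI.

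Isl1, which passed the expression filter through tumors alone, showed the largest log2 fold change of FPKM + 1 among the members in TI vs AG. It specifies sympathetic and motor neurons and is needed for the survival of sympathetic neuroblasts. Its level was 0.400, 0.331 and 0.340 FPKM in AG and 0.691, 0.490, 0.749, 0.691 and 0.362 FPKM in AGM A to AGM E. In TI it ranged from 11.6 FPKM (TI D) over a median of 23.1 to 47.8 FPKM (TI C), and in TIM from 3.68 (TIM E) over 8.29 to 13.3 FPKM (TIM G). Every tumor lay above every gland, and 6 of 8 TIM libraries lay below all TI libraries. The mean FPKM was 66.6-fold higher in TI than in AG and 25.1-fold higher in TIM than in AG. The log2 fold change was 4.06 ± 0.33 (SE, FDR 4.66e-10) in TI vs AG, 2.8 ± 0.33 (FDR 2.07e-07) in TIM vs AG and 2.57 ± 0.28 (FDR 3.60e-08) in TIM vs AGM. Isl1 was also the member with the lowest FDR between the tumor models, at -1.26 ± 0.24 (FDR 0.00111) in TIM vs TI, and this call held with any 1 of the 24 libraries left out. AGM and AG differed by 0.23 ± 0.35 (FDR 0.676, limma, 95% interval -0.51 to 0.96), which passed with the spread of these 2 groups alone (FDR 0.0434).

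Phox2a encodes a homeodomain factor that drives transcription of the noradrenaline synthesis genes Th and Dbh. It was at 5.50, 4.92 and 5.12 FPKM in AG and at 17.9, 10.5, 19.97, 15.5 and 17.5 FPKM in AGM A to AGM E, with no overlap. TI tumors ranged from 9.11 FPKM (TI D) over a median of 53.6 to 107 FPKM (TI F), all above AG. TIM tumors ranged from 4.68 FPKM (TIM A) over 17.9 to 50.5 FPKM (TIM H), and 1 of them lay below all AG libraries. The highest TI tumor exceeded the lowest 11.8-fold, and in TI Phox2a reached the highest mean level of the 8 (55.9 ± 36.3 FPKM, SD, n = 8). Its log2 fold change was 2.82 ± 0.65 (SE, FDR 9.13e-04) in TI vs AG, and 1.35 ± 0.65 (FDR 0.0890) in TIM vs AG, which passed only without TIM A (FDR 0.0473) or TIM F (FDR 0.0498) among the fits that left out 1 library. In AGM vs AG it was 1.45 ± 0.70 (FDR 0.126), with the spread taken from all 4 groups, and it passed with the spread of the AG and AGM libraries alone (FDR 3.66e-04). TIM vs TI gave -1.47 ± 0.48 (FDR 0.0310), a call that was lost without TI A, TI E, TI F, TI G, TIM A, TIM D or TIM F, with an FDR of up to 0.0688. It was also lost with the spread of TI and TIM alone (FDR 0.0943). The change from gland to tumor differed by -2.93 ± 0.85 (FDR 0.0286) between the models, and TIM vs AGM alone gave -0.11 ± 0.55 (FDR 0.876, 95% interval -1.24 to 1.03). The difference between the models did not pass with any 1 of the 3 AG libraries left out (FDR up to 0.0770), with rescaled values, by voom or with the strictest filter.

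Hand2, the basic helix-loop-helix factor of sympathetic noradrenergic differentiation, was the most even member across tumors, with 1.98-fold between the lowest and the highest library in TI and 2.23-fold in TIM. It was at 8.03, 5.51 and 8.997 FPKM in AG and at 20.4, 12.96, 25.1, 18.5 and 18.4 FPKM in AGM A to AGM E. In TI it ranged from 32.5 FPKM (TI F) over a median of 57.7 to 64.5 FPKM (TI D), and in TIM from 29.1 (TIM B) over 44.2 to 64.8 FPKM (TIM F). AG, AGM and the tumors did not overlap, whereas the tumor models did. The log2 fold change was 2.68 ± 0.24 (SE, FDR 2.34e-09) in TI vs AG, 2.46 ± 0.24 (FDR 9.99e-09) in TIM vs AG and 1.23 ± 0.26 (FDR 9.86e-04) in AGM vs AG. TIM exceeded AGM by 1.22 ± 0.20 (FDR 1.58e-05), and TIM vs TI gave -0.23 ± 0.18 (FDR 0.376, 95% interval -0.59 to 0.14). The gland-to-tumor change was smaller by 1.46 ± 0.31 in TIM vs AGM than in TI vs AG (FDR 0.00253). It was the single one of the 4 interaction calls that held under every alternative tested.

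Gata2 and Gata3 are paralogs that act in sympathetic progenitors, GATA3 also being needed for Th expression and survival of sympathetic neurons. Gata2 was at 2.04, 1.72 and 1.85 FPKM in AG and at 7.50, 5.08, 9.29, 5.93 and 6.57 FPKM in AGM A to AGM E, above all AG libraries. In TI it ranged from 6.61 FPKM (TI C) over a median of 11.9 to 34.3 FPKM (TI F), again above AG throughout. In TIM it ranged from 0.737 FPKM (TIM F) over 14.6 to 25.0 FPKM (TIM G), so 1 tumor lay below all AG libraries while 7 lay above them. Gata2 rose by 2.29 ± 0.60 (SE, FDR 0.00270) in TI vs AG and by 1.93 ± 0.60 (FDR 0.0100) in TIM vs AG on the log2 scale. AGM vs AG gave 1.43 ± 0.65 (FDR 0.101), which passed with the spread of these 2 groups alone (FDR 2.09e-04) and also without TIM F (FDR 0.0307). In TIM vs AG the call was lost with the spread of AG and TIM alone (FDR 0.0588).

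Gata3 passed in none of the 6 contrasts. It was at 2.28, 1.81 and 1.98 FPKM in AG and at 2.44, 1.46, 3.39, 1.79 and 1.71 FPKM in AGM A to AGM E, and these groups overlapped. In TI it ranged from 0.567 FPKM (TI A) over a median of 7.11 to 14.5 FPKM (TI C). In TIM it ranged from 0.186 FPKM (TIM H) over 4.64 to 7.62 FPKM (TIM F). Above all AG libraries lay 6 of 8 TI and 7 of 8 TIM tumors, and TI A, TI F and TIM H lay below them. The log2 fold change was 1.13 ± 0.56 (SE, FDR 0.0969) in TI vs AG and 0.70 ± 0.56 (FDR 0.312) in TIM vs AG. TI vs AG passed without TI A or without TI F, with a lowest FDR of 0.0178. Without TIM H, TIM vs AGM passed as well (FDR 0.0472, from 0.222 with all libraries).

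Sox11, a SoxC factor of immature neurons, was near 0 in the glands, so that its fold changes depend on the pseudocount. It had 3, 6 and 7 recovered reads in AG and 3, 1, 8, 1 and 1 in AGM A to AGM E, at most 0.0120 FPKM. In TI it ranged from 0.607 FPKM (TI F, 532 reads) over a median of 5.26 to 10.4 FPKM (TI E, 11107 reads). In TIM it ranged from 0.267 FPKM (TIM E, 202 reads) over 1.24 to 5.48 FPKM (TIM F, 4098 reads). All 16 tumors lay above all 8 glands. The log2 fold change of FPKM + 1 was 2.46 ± 0.49 (SE, FDR 2.23e-04) in TI vs AG and 1.45 ± 0.49 (FDR 0.0175) in TIM vs AG, and the latter call did not survive the removal of any 1 AG library (FDR up to 0.0526). Against AGM, TIM was higher by 1.45 ± 0.42 (FDR 0.00427). With limma-voom on recovered reads, these 3 calls were lost (FDR 0.0902, 0.172 and 0.0674). TIM vs TI gave -1.01 ± 0.37 (FDR 0.0487), just inside the threshold, and stayed inside it in 5 of 24 fits that each left out 1 library. This call was also lost with a pseudocount of 0.1, without a filter and with the spread of TI and TIM alone.

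Insm1, a marker of neuroendocrine cells and their progenitors, was at 1.19, 0.901 and 1.19 FPKM in AG and at 4.71, 2.31, 5.85, 3.95 and 3.58 FPKM in AGM A to AGM E. It ranged from 4.05 FPKM (TI D) over a median of 14.95 to 19.96 FPKM (TI A) in TI, and from 4.41 (TIM E) over 8.75 to 21.97 FPKM (TIM G) in TIM. All AGM libraries and all tumors lay above AG, and 7 of 8 TIM tumors lay above AGM. Insm1 rose by 2.71 ± 0.37 (SE, FDR 2.15e-06) in TI vs AG, by 2.26 ± 0.37 (FDR 2.40e-05) in TIM vs AG, by 1.24 ± 0.40 (FDR 0.0245) in AGM vs AG and by 1.02 ± 0.31 (FDR 0.00707) in TIM vs AGM. The gland-to-tumor change differed by -1.69 ± 0.49 (FDR 0.0274) between the models. Both this difference and the call in AGM vs AG disappeared on leaving out AG A, AG B, AG C or AGM C, with an FDR of up to 0.0852 and 0.0864, and by voom (FDR 0.0928 and 0.0773). TIM vs TI gave -0.45 ± 0.28 (FDR 0.245) and passed without TI D (FDR 0.0462).

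Tbx2, a T-box repressor that promotes cell cycle progression in neuroblastoma, was the single member that was lower in AGM than in AG. It was at 5.03, 4.53 and 4.46 FPKM in AG and at 2.06, 1.44, 1.99, 1.61 and 1.90 FPKM in AGM A to AGM E, with no overlap. In TI it ranged from 5.79 FPKM (TI F) over a median of 10.5 to 19.0 FPKM (TI B), above all glands. In TIM it ranged from 4.07 FPKM (TIM A) over 6.09 to 12.1 FPKM (TIM C), above all AGM libraries and overlapping AG. It fell by 1.02 ± 0.30 (SE, FDR 0.0149) in AGM vs AG on the log2 scale, a call lost without AG A (FDR 0.0594). It rose by 1.06 ± 0.28 (FDR 0.00313) in TI vs AG and by 1.45 ± 0.24 (FDR 1.60e-05) in TIM vs AGM, while TIM vs AG gave 0.43 ± 0.28 (FDR 0.215, 95% interval -0.16 to 1.01). Tbx2 in TIM thus passed against AGM and not against AG. TIM vs TI gave -0.63 ± 0.21 (FDR 0.0322) and was lost without TI A, TI B, TI G, TIM A, TIM B or TIM D (FDR up to 0.0737). It was also lost with the spread of TI and TIM alone and without TI D, TIM A and TIM E together (FDR up to 0.0953).

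The changes in AGM vs AG went with large differences in gland markers. All 9 cortex markers and 5 of 6 chromaffin cell markers were higher in AGM, and Th alone was at 9.72 to 15.6 FPKM in AG and at 159 to 269 FPKM in AGM. Rescaling by reads outside the 126 extreme genes moved the median log2 fold change of all tested genes in AGM vs AG from -0.0023 to -0.34, and voom on these reads moved it to -0.50. Of the calls in AGM vs AG, 51.2% were higher in the values as deposited, 21.8% after rescaling and 14.4% by voom. Relative to the shifted median, Hand2 stood at 1.19 and 1.37, Insm1 at 1.59 and 1.85 and Tbx2 at -1.39 and -1.38 under the 2 scalings, and Insm1 did not pass by voom (FDR 0.0773). In TIM vs TI, the share of higher calls was 43.6% as deposited, 29.9% after rescaling and 22.7% by voom, and in the difference between the models 38.5%, 62.1% and 79.6%, while no called member changed sign. The part of cell composition, sequencing run and batch correction in these differences was not tested.

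Some calls changed when the tumors with the most fibroblast or Schwann cell marker RNA were left out. Without TI D, TIM A and TIM E together, 7 members rose in TI vs AG as before. In TIM vs AG 6 rose, with Phox2a now among them, and 5 were higher in TIM than in AGM. Of all 10171 tested genes, 2643, 2464 and 3370 were higher in these comparisons. In TIM vs TI, Phox2a and Isl1 remained lower, and Tbx2 and Sox11 no longer passed. Genes called lower in TIM vs TI went from 1315 to 1060 of 10171. The part of the marker-rich cells in this was not tested. This fit was chosen after the values were seen.

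Ordered by mean FPKM, which is per gene length, the tumors of both models had Hand2 and Phox2a at the top. In TI the order was Phox2a (55.9 ± 36.3, SD), Hand2 (53.8 ± 10.8), Isl1 (23.8 ± 11.8), Gata2 (14.8 ± 9.03), Insm1 (13.9 ± 5.51), Tbx2 (11.5 ± 4.43), Gata3 (7.30 ± 5.08) and Sox11 (5.38 ± 3.08). In TIM it was Hand2 (46.5 ± 12.9), Phox2a (19.4 ± 15.6), Gata2 (13.5 ± 8.69), Insm1 (9.98 ± 5.44), Isl1 (8.97 ± 3.29), Tbx2 (7.06 ± 3.01), Gata3 (4.54 ± 2.26) and Sox11 (2.32 ± 2.18). Neighbours in both orders differed by less than the larger of their SDs, with the exception of Hand2 and Isl1 in TI and Hand2 and Phox2a in TIM. In AGM the order was Hand2 (19.1 ± 4.38), Phox2a (16.3 ± 3.59), Gata2 (6.87 ± 1.61), Insm1 (4.08 ± 1.31), Gata3 (2.16 ± 0.776), Tbx2 (1.80 ± 0.264), Isl1 (0.597 ± 0.164) and Sox11 (0.00412 ± 0.00460). In AG, Hand2 (7.51 ± 1.80), Phox2a (5.18 ± 0.290) and Tbx2 (4.67 ± 0.313) led, and Isl1 (0.357 ± 0.0375) and Sox11 (0.00605 ± 0.00239) came last.

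Within a model the members did not vary as one block. All 28 pairs were correlated on log2(FPKM + 1) across the 8 TI and, separately, the 8 TIM tumors, since glands and tumors formed separate clusters. Of the 56 correlations, 12 had an exact two-sided permutation p below 0.05 and 0 an adjusted p below 0.05, by Pearson's r or by Spearman's rho (14 and 0 with a pseudocount of 0.1), and the sign of 26 of 28 pairs was the same in TI and TIM. The pairs below are therefore descriptions of these tumors. Gata2 had a negative r with 6 of the 7 other members in TI (all but Phox2a) and with 5 in TIM (all but Phox2a and Insm1). Each r was also taken without the 2 tumors farthest from the median of the pair's first gene, in the order of the opening list. For Phox2a or Hand2 with Gata2, these tumors were thus farthest in Phox2a or Hand2, and for the other members farthest in Gata2. So taken, r with Gata2 stayed negative with 4 in TI and with 3 in TIM (Hand2, Gata3 and Tbx2), where it turned to 0.93 with Isl1 and 0.59 with Sox11. Over all 56 correlations, 13 changed sign in this way. With Hand2, r was -0.81 in TI (exact permutation p = 0.0179, adjusted 0.143, rho -0.60, p = 0.132) and -0.84 in TIM (exact permutation p = 0.00719, adjusted 0.0844, rho -0.81, p = 0.0218). Without the 2 tumors farthest in Hand2 it was -0.32 in TI and -0.80 in TIM, and this pair was not taken without those farthest in Gata2.

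Its paralog Gata3 was the strongest opposite of Gata2 in TI, with r = -0.86 (exact permutation p = 0.00580, adjusted 0.0844) and rho = -0.95 (exact permutation p = 0.00114, adjusted 0.0639), and -0.85 without the 2 farthest tumors. The same pair had r = -0.45 in TIM, and -0.016 without the 2 farthest tumors. Gata2 and Tbx2 had r = -0.90 in TIM (exact permutation p = 0.00642, adjusted 0.0844, rho -0.81, p = 0.0218) and -0.43 in TI, the former falling to -0.56 without the 2 farthest tumors. Hand2 and Tbx2 ran together in TIM (r = 0.90, exact permutation p = 0.00325, adjusted 0.0844, rho 0.88, p = 0.00724), with 0.88 left without the 2 farthest tumors, whereas in TI r was 0.50 and turned to -0.54 without them. Isl1 and Sox11 ran together in both models, with r = 0.76 in TI (exact permutation p = 0.0238, adjusted 0.148, rho 0.88, p = 0.00724) and 0.84 in TIM (exact permutation p = 0.00754, adjusted 0.0844, rho 0.71, p = 0.0576). Without the 2 farthest tumors r was 0.80 and 0.84. TIM F and TIM C show the pattern at its extreme: they were lowest in Gata2 (0.737 and 2.60 FPKM) and highest in Hand2, Tbx2 and Sox11. TI F was its counterpart, highest in Gata2 and lowest in Hand2, Tbx2 and Sox11 among TI tumors.

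**Figure D3:**
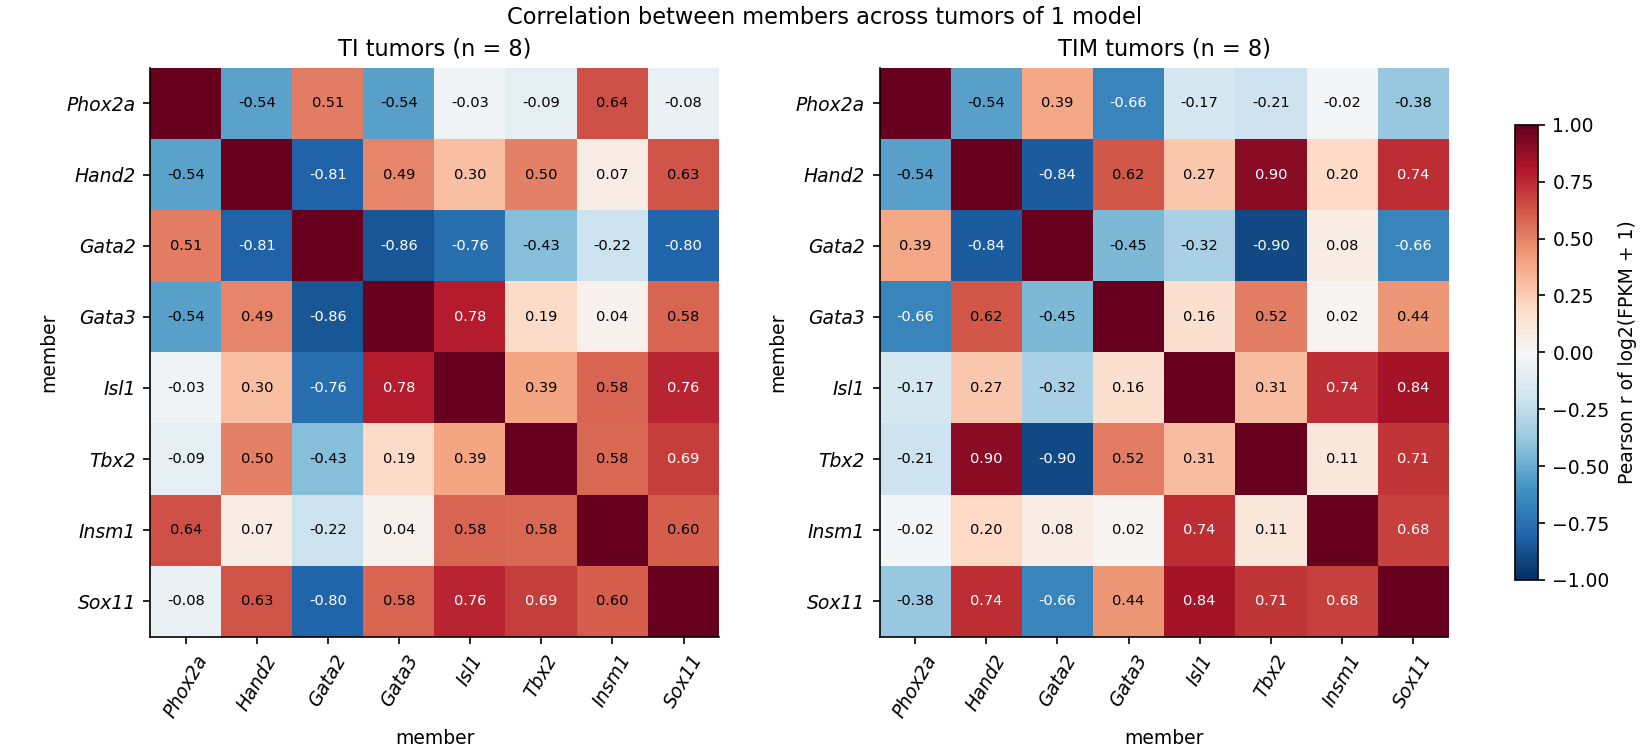
Pearson's r of log2(FPKM + 1) for each pair of members across the 8 TI tumors and the 8 TIM tumors. The Gata2 row is mostly negative in both models, down to -0.86 with Gata3 in TI and -0.90 with Tbx2 in TIM. In TIM only 3 of its 7 values stay negative without the 2 tumors farthest from the median of each pair's first gene. No r passed after adjustment over 56 correlations.

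Th, which encodes tyrosine hydroxylase, the rate-limiting enzyme of catecholamine synthesis, was added after the values were seen. It was among the 126 genes above 1000 FPKM, with 1514 FPKM in TIM B and 1889 FPKM in TIM E. Of its 16 correlations with the members, 8 had an exact permutation p below 0.05 and 0 an adjusted p below 0.05. The adjustment covered all 32 correlations computed with genes outside the members, of which those with Th are given. Sox11 ran opposite to Th with r = -0.72 in TI (exact permutation p = 0.0419, adjusted 0.149, rho -0.83, p = 0.0154) and -0.88 in TIM (exact permutation p = 0.00268, adjusted 0.0655, rho -0.83, p = 0.0154). Without the 2 tumors farthest from the median of Sox11, r was -0.40 and -0.67. Isl1 ran opposite to Th in TI (r = -0.86, exact permutation p = 0.00409, adjusted 0.0655, rho -0.93, p = 0.00223), and r was -0.75 without the 2 farthest tumors. Gata2 ran with Th (r = 0.77, exact permutation p = 0.0259, adjusted 0.149 in TI, and r = 0.85, exact permutation p = 0.0225, adjusted 0.149 in TIM). In TIM this rested on 2 tumors, as r was -0.38 without them.

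**Figure D4:**
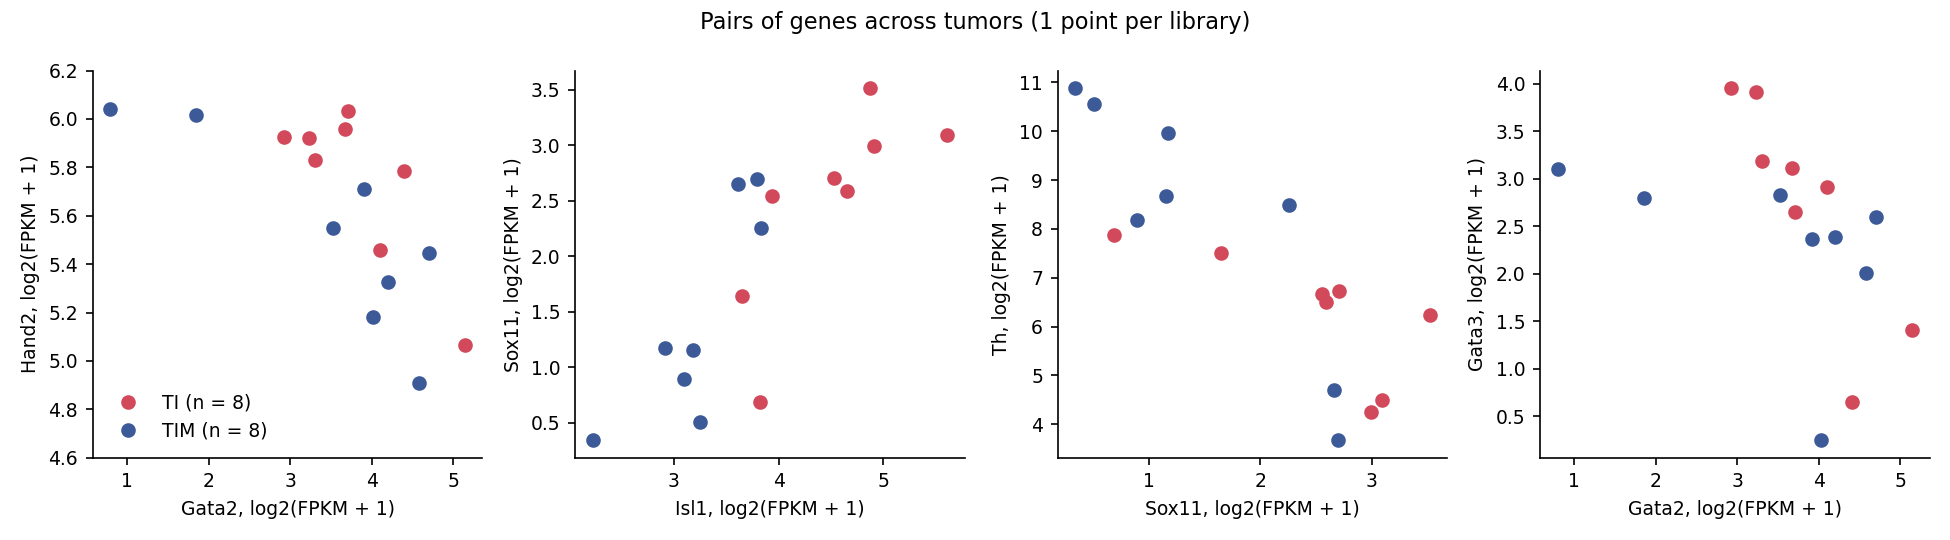
Each point is 1 tumor of TI (n = 8) or TIM (n = 8), with both axes as log2(FPKM + 1), for Gata2 and Hand2, Isl1 and Sox11, Sox11 and Th, and Gata2 and Gata3. Gata2 and Hand2 had r = -0.81 in TI and -0.84 in TIM, and Sox11 and Th had -0.72 and -0.88. Without the 2 tumors farthest in Hand2 the former were -0.32 and -0.80, and without the 2 farthest in Sox11 the latter were -0.40 and -0.67. No r of the pairs shown passed after adjustment.

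The other genes of the circuit gave the setting of these values. Of 16 listed partner factors, 12 were tested, of which 7 rose and 1 fell in TI vs AG and 6 rose and 1 fell in TIM vs AG. The largest changes among these in TI vs AG were those of Tfap2b (3.36 ± 0.26, SE, FDR 1.77e-10), Lmo1 (3.32 ± 0.37, FDR 1.03e-07), Eya1 (2.73 ± 0.35, FDR 9.07e-07) and Pbx3 (-2.39 ± 0.13, FDR 5.41e-13). TFAP2B is a transcription factor of sympathetic differentiation, LMO1 a LIM-only coregulator, EYA1 a transcriptional coactivator and PBX3 a homeodomain cofactor.

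Paralogs of the members differed in direction. Of 12 listed, 7 were tested, and 3 rose and 2 fell in TI vs AG and likewise in TIM vs AG. Insm2 (3.07 ± 0.65, SE, FDR 3.69e-04) and Sox4 (1.93 ± 0.43, FDR 6.47e-04), a SoxC gene like Sox11, rose in TI vs AG, whereas Tbx3 (-2.88 ± 0.14, FDR 2.91e-14) and Gata6 (-2.18 ± 0.19, FDR 2.02e-09) fell. Tbx3 was at 9.85 to 10.2 FPKM in AG and at 7.65 to 10.6 FPKM in AGM, and at no more than 1.15 FPKM in any tumor, whereas its paralog Tbx2 rose in TI vs AG and did not pass in TIM vs AG. Gata6, a GATA factor of the adrenal cortex, fell from 3.51 to 4.53 FPKM in AG to at most 0.134 FPKM in TI, opposite to Gata2. Gata1 was listed at 0 in all TIM libraries.

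Of 17 genes of noradrenergic and neuronal output, 8 rose and 0 fell in TI vs AG, and 10 rose and 0 fell in TIM vs AG. Gap43 (5.67 ± 0.54, SE, FDR 7.75e-09) and Stmn2 (3.97 ± 0.34, FDR 9.60e-10), both of growing axons, changed most in TI vs AG, followed by the vesicular monoamine transporter Slc18a2 (3.18 ± 0.53, FDR 2.50e-05) and the decarboxylase Ddc (2.78 ± 0.74, FDR 0.00311). Of 14 factors of the mesenchymal state, the alternative identity of neuroblastoma cells, 6 were tested, and 5 fell in TI vs AG and 4 in TIM vs AG, none rising. Fosl2 (-1.64 ± 0.39, SE, FDR 0.00125), Notch2 (-1.44 ± 0.07, FDR 1.48e-13), Nr2f2 (-1.14 ± 0.29, FDR 0.00205) and Wwtr1 (-1.09 ± 0.22, FDR 2.98e-04) fell most in TI vs AG. Their fall went with that of 7 of 9 cortex, 4 of 6 endothelial and 3 of 6 fibroblast markers, whose part in it was not tested.

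By likeness of pattern over the 24 libraries (Pearson's r of log2(FPKM + 1) among 10070 tested genes that never exceeded 1000 FPKM), no member was among the 3 nearest genes of another. The nearest to Isl1 were Gdpd1 (r = 0.98), Gpsm1 (0.98) and Mgat5b (0.97). Sox11 was nearest to Dcx (0.97), the doublecortin gene of migrating neurons, Mex3b (0.97) and Mybl2 (0.97). Hand2 was nearest to Bex4 (0.94), Rnf208 (0.94) and Rundc3a (0.94), and Tbx2 to Tlnrd1 (0.95), Rnf187 (0.94) and Trim37 (0.94). For Insm1 they were Myt1 (0.91), a zinc finger gene of neural progenitors, Zscan2 (0.91) and Rcor2 (0.90). Gata2 was nearest to Ddc (0.90), Adgra1 (0.90) and Zfp956 (0.88). Phox2a had the least alike neighbours, Adprm (0.83), X1500009L16Rik (0.79) and Ripply2 (0.74), and Gata3 had X9230102O04Rik (0.90), X4930412O13Rik (0.89) and Odf4 (0.80). Names that open with X are as the table gives them. These libraries share the split between glands and tumors, and the values carry no test.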

How the data were processed

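The authors aligned strand-specific poly(A) RNA-seq reads with HISAT2 (2.1.0) to mm39, corrected a batch effect with ComBat-seq and normalized by TMM in edgeR (3.40). Per the submitters' processing notes, featureCounts (2.0.0), cutadapt (2.8) and SAMtools (1.10) were used, and the gene annotation was not given in the sources used here. The deposited values are FPKM of 21833 genes with gene lengths. The authors' 9 columns of fold changes, p-values and FDR were not used. Values times gene length were whole multiples of 1 step in 100% of entries (tolerance 0.001 reads), which returned batch-corrected reads per gene. Intervals on reads would cover counting error only.

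limma (3.58.1, R 4.3.3; lmFit, eBayes with trend) was fitted to log2(FPKM + 1) of the 10171 genes that reached 1 FPKM in 3 or more of the 24 libraries. P-values were adjusted over these genes by Benjamini-Hochberg, FDR below 0.05 was the threshold, and the fit was tested on simulated data. Correlations used exact permutation over 40320 pairings. Alternatives were a pseudocount of 0.1, other filters, FPKM rescaled by reads outside genes above 1000 FPKM, limma-voom, the spread of the compared groups alone and leaving out each library. The members and gene lists were chosen with earlier results of these data known. By rule, list genes named are the up to 4 with the largest absolute log2 fold change in TI vs AG past the threshold, a marker at 0 is named, and the 3 most alike genes are given per member. Of the listed genes outside the members, 1 is not reported here.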

Additional observations from a re-analysis of the deposited data

Results flagged for a closer look

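In 4 members the change from gland to tumor differed between the models by the interaction contrast of limma, (TIM vs AGM) minus (TI vs AG), on the log2 scale: Insm1 by -1.69 (FDR 0.0274), Phox2a by -2.93 (FDR 0.0286), Hand2 by -1.46 (FDR 0.00253) and Isl1 by -1.48 (FDR 0.0275). Each of these values depends on both glands and both tumor models. Insm1 and Hand2 were higher in AGM than in AG. Phox2a was at 16.3 ± 3.59 FPKM (SD, n = 5) in AGM beside 5.18 ± 0.290 (n = 3) in AG. Isl1 gave 0.23 (limma, FDR 0.676) in AGM vs AG, at values below 1 FPKM, where the mean FPKM was 1.67-fold higher in AGM. This passed with the spread of AG and AGM alone (FDR 0.0434). In TIM vs TI, Isl1 gave -1.26 (FDR 0.00111). The part of the gland reference in these calls was not tested. AG and AGM were sequenced in separate runs, so run and genotype cannot be told apart here. On FPKM, no library stood far from the rest of its group in any of the 24 combinations of member and group tested for a single distant library, where chance gives about 1 in 20. The test was not run on log2(FPKM + 1), the scale of the fits. On that scale Gata3 was at 0.246 in TIM H, with the next TIM library (TIM B) at 2.01. Insm1 was at 2.34 in TI D, with the next TI library (TI F) at 3.49.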

How the results depend on the processing

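Requiring 1 FPKM in every library left 3 members to test (Phox2a, Hand2 and Tbx2) and counts of 3 in TI vs AG, 1 in TIM vs AG, 2 in TIM vs TI, 2 in TIM vs AGM and 1 in the difference between the models. With the spread of the compared groups alone, 6 members passed in AGM vs AG and 1 in TIM vs TI. Of all 10171 tested genes, 6312 and 1309 were called in these fits. Without TI D, TIM A and TIM E, 2 members passed in TIM vs TI, where 1771 of 10171 genes were called. With limma-voom, 1 passed in the difference, where 457 of 10171 genes were called. Leaving out 1 library at a time gave 7 to 8 members in TI vs AG, 4 to 6 in TIM vs AG, 1 to 4 in AGM vs AG, 1 to 5 in TIM vs TI, 5 to 6 in TIM vs AGM and 1 to 4 in the difference. Other counts stayed within 1.5 times of those reported. The causes were not tested.

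Signs turned only in values that did not pass. Gata3 in AGM vs AG (0.03) was -0.39 after rescaling, -0.47 by voom and -0.092 to 0.12 with 1 library left out (below 0 without AG B, AGM A or AGM C). Phox2a in TIM vs AGM (-0.11) was 0.19 after rescaling, 0.18 by voom, 0.080 without the 3 marker-rich tumors, and -0.35 to 0.10 with 1 library left out (above 0 without TIM A, TIM D or TIM F). Gata2 in TIM vs TI (-0.36) was -0.54 to 0.016 with 1 library left out (above 0 without TIM F). Without the 2 farthest tumors, 13 of 56 correlations between members and 5 of 16 with Th changed sign, the latter to -0.38 (Gata2), 0.37 (Tbx2) and -0.051 (Phox2a) in TIM and to 0.13 (Hand2) and 0.026 (Insm1) in TI.

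The number of genes tested differed between the fits. AGM vs AG called 2908 of 10171 genes, 5863 of 14422 after rescaling and 6312 of 10171 with its own spread. TIM vs TI called 2332 of 10171, 3595 of 14422 after rescaling and 1309 of 10171 with its own spread. The difference called 1018 of 10171, 600 of 10171 with a pseudocount of 0.1, 1626 of 18862 without a filter and 457 of 10171 by voom. Requiring 1 FPKM throughout tested 3464 genes and called 1627, 1534, 569, 737, 1944 and 14 in the 6 contrasts in the order of the plot of comparisons, beside 5327, 5190, 2908, 2332, 6639 and 1018. Rescaling and voom moved the median log2 fold change of all genes by more than 0.1 also in TIM vs AG (-0.14, -0.23), TIM vs TI (-0.12, -0.17), TIM vs AGM (0.24, 0.35) and the difference (0.24, 0.36). Higher calls went from 44.2% to 31.5% by voom in TIM vs AG and from 48.8% to 59.9% and 60.5% in TIM vs AGM. Rescaled FPKM were 3.54 to 6.47 times the deposited values, so a pseudocount of 1 weighed less. No paired analysis was possible because the columns carry no replicate numbers of the labels. The test for members below the expression filter was not run, as none was below it.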
